A study of Mus musculus with 96 samples.

Results

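The cells described are 36 of the 96 wells of a single-cell RNA-seq plate of mouse red cell progenitors: 21 cells of a lower intermediate sort gate, called Intermediate_25-35, and 15 cells of the BFUE gate in which Cd34 was nearly absent. All cells were taken at embryonic day 14.5 from the fetal liver of C57/Bl6J mice, and the labels name no mutation or treatment for any group. Before sorting, cells of all gates had been depleted with antibodies to CD3e, CD45R, Ly-6G, CD11b, Ter119, Sca-1, CD16/32 and CD41, and the remaining cells were then stained for Kit, CD71 and CD24. The lower intermediate gate took cells with 25 to 35% of CD71/CD24 expression, and the BFUE gate is named for the burst-forming unit-erythroid. CD71 and CD24 carried the same dye, so the gate does not separate them. Members needed 50000 or more reads in genes, and BFUE members also needed less than 100 CPM of Cd34 (the reads of a gene after scaling every cell or group to the same total).

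Red cells arise from multipotent progenitors through committed cells that are known by the colonies they form. The burst-forming unit-erythroid is the earlier committed progenitor, held in a dividing state by Kit and glucocorticoid signals. The colony-forming unit-erythroid is the later one, which depends on erythropoietin and then starts to build heme, hemoglobin and the red cell membrane. CD71, the transferrin receptor, and CD24 increase on the surface between these stages, and the intermediate gates lie between them. At E14.5 the fetal liver is the main site of red cell production in the mouse.

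The 21 lower intermediate cells held between 1022381 and 3196597 reads each (31059327 in sum), and the 15 BFUE cells between 1464907 and 3785903 (26209421 in sum). A median of 9283 genes was detected per lower intermediate cell and of 9567 per BFUE cell. The share of mitochondrial reads had a median of 1.86% in lower intermediate and 1.75% in BFUE cells. Cd34, which encodes a surface protein of early blood progenitors and chose the BFUE members, reached at most 3.91 CPM in a lower intermediate cell and 5.16 CPM in a BFUE member, and the next BFUE cell above the threshold held 1036 CPM. Gate and plate column cannot be told apart, as the gates filled separate columns. No animal or pool is named in the labels, which makes each gate 1 sample, and the differences below have no replicate check and no test. Exact 95% intervals are given that cover counting error alone, as reads without molecular identifiers are not independent molecules.

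Of 8163 genes at 10 CPM or more in either group, 304 (3.72%) were at least 2-fold higher in the summed reads of the lower intermediate cells than of the BFUE cells, and 735 (9.0%) were at least 2-fold lower. At 1.5-fold, 779 (9.54%) were higher and 1443 (17.7%) lower. The median log2 ratio of all 8163 genes was -0.046. For 0 of the 8163 genes (0% in each direction) did all cells of a group lie above all cells of the other. Leaving aside up to 1 overlapping cell of each group, 1 gene was higher, Mthfd1, and 4 were lower, Muc13, Ptprcap, Arpc1b and Etfb, of which all but Muc13 were named after their values were seen. Set by the median cell of each group instead of the summed reads, 7105 genes were measured. Of these, 584 (8.22%) were at least 2-fold higher and 640 (9.01%) at least 2-fold lower.

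Sphk1, which encodes the kinase that makes sphingosine-1-phosphate (ENSMUSG00000061878, chromosome 11, 116530925 to 116536674, GRCm38), had the highest ratio among the ranked genes, those at 50 CPM or more with 10 reads in 50% or more of the cells of the higher group. It lay between 56 and 502 CPM in the lower intermediate cells (median 228) and between 0 and 219 CPM in the BFUE cells (median 1.31). All 21 lower intermediate cells but 6 of 15 BFUE cells held 10 or more reads of it, and 12 BFUE cells lay under the lowest lower intermediate cell. Over the summed reads it was at 255 against 37.5 CPM, 6.79-fold higher (interval 6.35 to 7.26). The lower intermediate cell was higher in 95.6% of all pairs of a lower intermediate and a BFUE cell, with ties split evenly. A RefSeq promoter window of Sphk1 is shown because this gene led the ranking. Of the 5 windows of the gene, each 300 bases long, 3 hold 0 matches to the letters GATAA on either strand, part of the motif bound by GATA factors. The other 2 overlap and share 1 match, and the upstream one is printed to show it in capitals (chr11:116532194-116532493, plus strand, GRCm38.p6).
Sphk1: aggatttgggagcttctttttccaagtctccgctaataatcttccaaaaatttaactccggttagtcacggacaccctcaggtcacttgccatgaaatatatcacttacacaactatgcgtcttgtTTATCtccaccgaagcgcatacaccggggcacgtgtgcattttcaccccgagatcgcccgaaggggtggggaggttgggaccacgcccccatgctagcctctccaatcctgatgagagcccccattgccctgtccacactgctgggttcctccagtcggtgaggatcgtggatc

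Several other genes were nearly silent in most BFUE cells and present in nearly all lower intermediate cells. Rgcc, a regulator of the cell cycle, lay between 19 and 258 CPM in lower intermediate cells (median 104) and between 0.264 and 134 CPM in BFUE cells (median 2.62). Tgm2, a transglutaminase that crosslinks proteins (chromosome 2, 158116402 to 158146436), had a median of 60.8 CPM in lower intermediate cells and 0.655 CPM in BFUE cells. Its highest cell was at 160 CPM in the lower intermediate gate and at 70.2 CPM among BFUE cells, and 20 of 21 against 5 of 15 cells held 10 or more reads. Summed, Rgcc was 5.78-fold higher (interval 5.27 to 6.34) and Tgm2 4.36-fold higher (interval 3.90 to 4.88). Tmem56 was 6.74-fold higher, with 20 against 5 cells at 10 or more reads.

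Among the ranked genes, 4 encode membrane transporters or channels for metals or other cations. Atp7b, a copper-transporting ATPase, lay between 41.1 and 435 CPM in lower intermediate cells (median 206) and between 0 and 278 CPM in BFUE cells (median 9.77), and was 3.79-fold higher. Slc30a10, a manganese exporter, was 5.05-fold higher, at 51.6 against 10.2 CPM. Slc39a8, an importer of zinc and manganese, was 3.32-fold higher, at 149 against 45 CPM. Trpv2, a cation channel, was 4.58-fold higher. These were grouped after their values were seen. C1qtnf12, a secreted protein, was more evenly shared: 17 of 21 lower intermediate cells lay above all BFUE cells, yet 14 of 15 BFUE cells held 10 or more reads, and it was 3.26-fold higher (232 against 71.1 CPM). The other ranked genes were Taf4b, Hspbap1, Crip2, Scrn3, Abcg4 and Cd24a, between 3.20-fold and 4.88-fold higher.

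**Figure D1:**
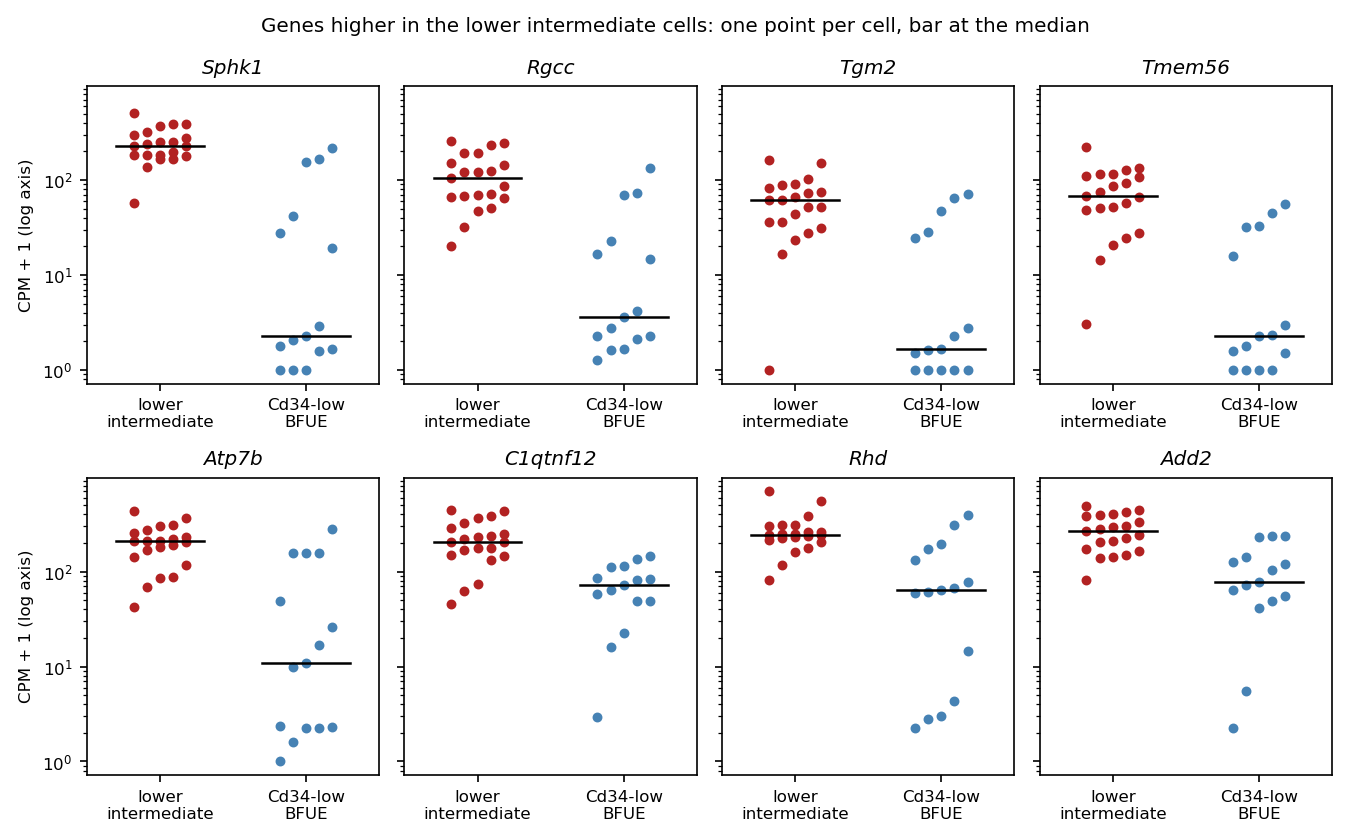
CPM plus 1 on a log axis in each of the 21 lower intermediate cells and the 15 Cd34-low BFUE cells for 8 genes, with a bar at the median. Sphk1 and Rgcc show a compact lower intermediate group and a BFUE group with most cells near 0 and a few cells reaching the other group.

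Cd24a and Tfrc encode the proteins used to sort and are no findings. Cd24a was at 401 against 96.9 CPM and Tfrc at 547 against 185 CPM. Kit, the third sorted gene, was at 694 CPM in lower intermediate and 764 CPM in BFUE cells, with lower intermediate cells higher in 49.8% of pairs. A single BFUE cell, in well D1, held 1.35 CPM of Tfrc, while the other BFUE cells lay between 51.8 and 551 CPM.

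The genes with lower levels in the lower intermediate gate reached larger ratios. Muc13, a transmembrane mucin (chromosome 16, 33794037 to 33819934), lay between 0 and 27.5 CPM in lower intermediate cells (median 0.720) and between 0.669 and 880 CPM in BFUE cells (median 195). 14 of 15 BFUE cells lay above all lower intermediate cells, the exception being the cell of well H3. Summed, Muc13 was at 5.83 against 266 CPM, 45.6-fold lower (interval 39.3 to 53.1). Rab37, a small GTPase of vesicle secretion, had 10 or more reads in 1 of 21 lower intermediate and 12 of 15 BFUE cells and was 161-fold lower (interval 104 to 264), at 0.644 against 104 CPM. Itgal, the alpha chain of the leukocyte integrin LFA-1, was 21.1-fold lower (interval 17.4 to 25.8). A promoter window of Muc13, second among the ranked genes in this direction, is shown because it holds 1 match to GATAA on either strand, in capitals, while the other of its 2 RefSeq windows holds 0 (chr16:33794239-33794538, plus strand, GRCm38.p6).
Muc13: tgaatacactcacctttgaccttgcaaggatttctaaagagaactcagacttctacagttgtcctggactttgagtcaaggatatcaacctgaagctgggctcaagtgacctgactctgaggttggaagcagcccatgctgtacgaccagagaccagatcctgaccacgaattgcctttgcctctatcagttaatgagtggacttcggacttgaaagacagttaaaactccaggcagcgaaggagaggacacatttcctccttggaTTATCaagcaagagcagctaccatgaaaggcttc

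Some of the lower genes were still present in most lower intermediate cells. Laptm5, a lysosomal membrane protein of blood cells, lay between 0.978 and 130 CPM in lower intermediate cells (median 36) and between 76.9 and 723 CPM in BFUE cells (median 165). The lower intermediate cell was higher in 4.44% of pairs, and the summed level was 5.04-fold lower (interval 4.77 to 5.34). Gmfg, a regulator of branched actin in blood cells, lay between 0 and 21.4 CPM against 8.52 to 188 CPM, and was 13.1-fold lower. Apoe, the lipid-carrying apolipoprotein E, was the most abundant of the lower genes. It had a median of 105 CPM in lower intermediate and 881 CPM in BFUE cells, and was 6.80-fold lower (137 against 932 CPM). Acap1, Celf2, Abcg1, Ramp1, Cd48, Psmb8, Ehd3, Emilin1 and Anxa5 were 4.32-fold to 13.7-fold lower. Psmb8 is a subunit of the immunoproteasome and Abcg1 a sterol exporter.

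**Figure D2:**
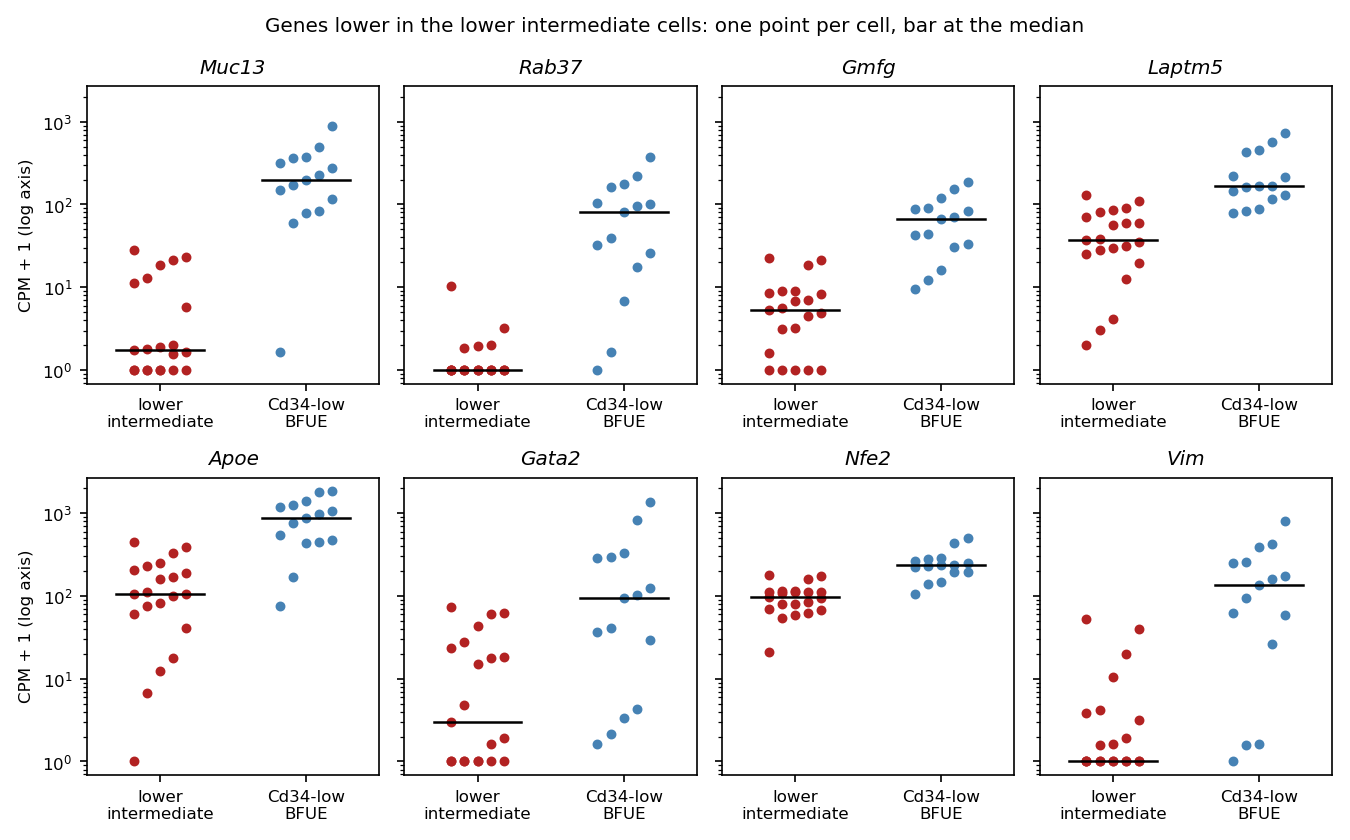
CPM plus 1 on a log axis in each of the 21 lower intermediate cells and the 15 Cd34-low BFUE cells for 8 genes, with a bar at the median. Most lower intermediate cells lie near 0 for Rab37 and Vim, while Laptm5 and Nfe2 are displaced with both groups detected.

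Of 15 ranked higher genes, lower intermediate cells held 12 to 15 at 10 or more reads (median 14) and BFUE cells 1 to 11 (median 7). Of 15 ranked lower genes, lower intermediate cells held 2 to 11 (median 7) and BFUE cells 7 to 15 (median 13). The genes were chosen on these cells, so these counts describe how the difference is spread over cells. The ranked higher genes include Cd24a, which encodes a sorted protein. The BFUE cell of well G2 held 1 of the higher and 14 of the lower genes, and that of D1 held 3 and 14. The BFUE cell of H3 held 11 of the higher and 7 of the lower genes, and that of G1 held 10 and 9.

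Among transcription factors of the red cell lineage, Gata1 and Klf1 were close in both groups, and Nfe2 and Gata2 were lower in the lower intermediate cells. Of 21 measured genes of this list, 3 rose by 1.5-fold or more and 5 fell, with a list median (the median log2 ratio of the measured members) of 0.25. Over all 8163 measured genes 9.54% were higher and 17.7% lower at this fold, the background for the list counts here and below. Gata1, the central erythroid factor, lay between 249 and 679 CPM in lower intermediate cells (median 419) and between 189 and 583 CPM in BFUE cells (median 419). It was at 410 against 411 CPM in sum and was singled out after its values were seen. Klf1, which activates globin and membrane genes, was at 827 against 657 CPM, a log2 ratio of 0.33. E2f4, needed for fetal red cell expansion in the mouse, was higher at a log2 ratio of 0.94, with a median of 176 against 97.4 CPM. Nfe2 lay at a median of 96.1 CPM in lower intermediate and 235 CPM in BFUE cells, a log2 ratio of -1.38, and the lower intermediate cell was higher in 5.08% of pairs. Myb, a factor of proliferating progenitors, was at 71.4 against 120 CPM.

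Gata2, a factor of stem and early progenitor cells (chromosome 6, 88193891 to 88207032), lay between 0 and 72.4 CPM in lower intermediate cells (median 1.98) and between 0.620 and 1353 CPM in BFUE cells (median 92.9). In lower intermediate cells 9 of 21 held 10 or more reads, and in BFUE cells 11 of 15. The groups overlap, since 8 BFUE cells lay above all lower intermediate cells and the BFUE cells of wells G1, A1, A3 and H3 held less than 5 CPM. Summed, it was at 15.6 against 235 CPM, 15-fold lower (interval 13.7 to 16.5). The BFUE cells of D1, G2, G3 and D3 had the highest Gata2, between 292 and 1353 CPM, and each held less than 1.1 CPM of Sphk1. Low Sphk1 was not particular to them, as its BFUE median was 1.31 CPM. The BFUE cell of A1 held 1.17 CPM of Gata2 and 0.587 CPM of Sphk1, and that of H1 held 122 and 18.4 CPM. The promoter window at the second of 2 RefSeq starts of Gata2 is shown as that of the marker gene with the lowest ratio, and it holds 0 matches to GATAA (chr6:88198414-88198713, plus strand, GRCm38.p6).
Gata2: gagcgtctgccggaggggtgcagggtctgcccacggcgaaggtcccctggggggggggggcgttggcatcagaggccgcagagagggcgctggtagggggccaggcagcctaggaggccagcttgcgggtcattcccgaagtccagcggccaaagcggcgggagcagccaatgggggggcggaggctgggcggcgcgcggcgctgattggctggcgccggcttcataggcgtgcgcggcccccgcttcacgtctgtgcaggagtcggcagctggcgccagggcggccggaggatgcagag

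Stem and multipotent progenitor genes were lower as a group. Of 29 listed genes, 14 were measured, of which 12 were at least 1.5-fold lower and 0 higher, list median -1.78 against -0.046 over all measured genes. Fli1, an ETS factor of stem cells and megakaryocytes, had 10 or more reads in 4 of 21 lower intermediate and 10 of 15 BFUE cells and was at 5.09 against 51.4 CPM. Meis1, a homeobox factor of stem cells, was at 6.41 against 48.4 CPM. Mycn and Ikzf2 had medians at or near 0 in both groups, and 0 and 1 lower intermediate cells held 10 or more reads against 5 and 6 BFUE cells.

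Megakaryocyte markers moved with this group. Of 13 markers 9 were measured, 8 were lower and 0 higher, list median -3.07. Their summed level per cell lay between 18.7 and 341 CPM in lower intermediate cells (median 155) and between 79.96 and 2677 CPM in BFUE cells (median 402). Pf4 and Ppbp, defining markers of megakaryocytes, had 0 reads in both groups. Itga2b, which encodes CD41, was at 8.85 against 148 CPM. The BFUE cells of wells G2, D1 and A2 stood apart with marker sums of 2677, 2387 and 1484 CPM, while the remaining BFUE cells reached no more than 573 CPM. Itga2b was at 881, 520 and 334 CPM in these 3 cells. With D1 and G2 left out, which was decided after seeing the data, the marker median was -2.06, the stem list median -1.29 and the log2 ratio of Gata2 -2.97. With A2 left out as well, also decided after seeing the data, these values were -1.22, -1.19 and -2.83. The part of these markers in the lower stem genes was not tested. The Itga2b protein, CD41, was among the depletion antigens of all gates.

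In the following marker lists of other cell types most genes were under 10 CPM in both groups. Of 14 neutrophil and monocyte markers 2 were measured, Mpo and Prtn3, at log2 ratios of -2.89 and -1.59, and Ms4a3, Cebpa, Cebpe, Ly6c2, S100a8 and S100a9 were at 0 in both groups. Their summed level per cell was 0 to 49.7 CPM in lower intermediate and 1.32 to 184 CPM in BFUE cells. Of 13 lymphoid markers 0 were measured, at 0 to 14.4 CPM against 0 to 101 CPM per cell, with Dntt, Pax5 and Cd3e among those at 0. Of 11 mast cell and basophil markers 1 was measured, Srgn, a proteoglycan of granules, at a log2 ratio of -1.13, with sums of 21.3 to 233 CPM against 64.1 to 438 CPM, and Fcer1a, Mcpt8, Mcpt4, Cma1, Tpsb2, Gzmb and Prss34 were at 0. Of 12 endothelial and stromal markers 2 were measured and both lower, with sums of 0 to 35.7 CPM against 0.569 to 156 CPM and Emcn, Col1a1, Col3a1, Lyve1 and Stab2 at 0. Of 11 macrophage markers 1 was measured, the iron exporter Slc40a1, with sums of 1.14 to 348 CPM against 0 to 229 CPM and Adgre1, C1qa, C1qb, Mrc1 and Timd4 at 0. All 5 measured of 12 hepatoblast markers were lower, list median -1.61, with sums of 14.2 to 262 CPM in lower intermediate and 13.7 to 1597 CPM in BFUE cells and 0 markers at 0 in both groups. The BFUE cell of well A2 had the highest hepatoblast score of the 36 cells. The part of liver cell RNA in the lower level of Apoe, which liver cells also make, was not tested.

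Genes of blood cell signalling shared with leukocytes, and the actin scaffold, were lower in most members. Of 19 measured leukocyte signalling adaptors, 13 were at least 1.5-fold lower and 0 higher, list median -0.91. Lat, the membrane adaptor that links receptors to phospholipase C in T cells and platelets, held 10 or more reads in 0 of 21 lower intermediate and 9 of 15 BFUE cells, at 0.161 against 44.3 CPM. Dock2, an activator of Rac in blood cells, was at 23.1 against 94.3 CPM. Of 19 measured actin and membrane scaffold genes, 11 were lower and 1 higher, list median -0.60. Vim, the intermediate filament vimentin, had a median of 0 CPM in lower intermediate and 136 CPM in BFUE cells, with 4 of 21 against 12 of 15 cells at 10 or more reads, and a log2 ratio of -4.94. Coro1a, an actin-binding protein of blood cells, was at 7.05 against 106 CPM. Lmna, which encodes the nuclear lamins A and C, was the 1 higher member, at a median of 229 against 49.6 CPM and a log2 ratio of 1.66.

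After thinning each cell to 500000 reads, the leukocyte adaptor score (the mean of log2 of CPM plus 10 over members) lay between 4.55 and 5.47 in lower intermediate cells (median 5.19) and between 5.05 and 7.35 in BFUE cells (median 6.07). 13 of 15 BFUE cells lay above all lower intermediate cells, with D1, A2 and G2 highest. Without these 3 cells the median log2 ratio of the list was -0.78. The actin scaffold score had medians of 6.39 and 7.05 in lower intermediate and BFUE cells, and 10 BFUE cells lay above all lower intermediate cells.

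**Figure D3:**
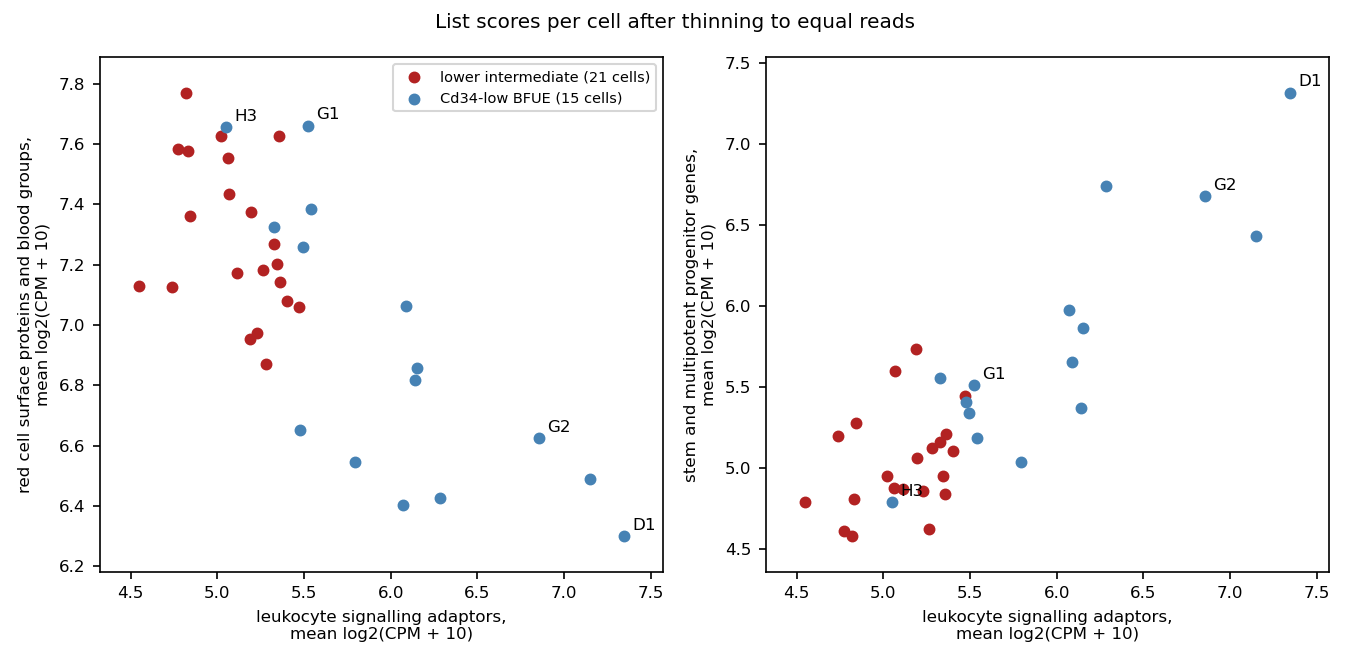
Per-cell scores, as means of log2 of CPM plus 10 after thinning to 500000 reads, of red cell surface genes (left) and stem genes (right) against leukocyte signalling adaptors, for 21 lower intermediate and 15 Cd34-low BFUE cells. The BFUE cells of wells D1 and G2 lie at the high end of the adaptor score. Those of H3 (5.05) and F3 (5.33, not labelled) lie within the lower intermediate range of that score. That of G1 (5.52) lies just above the highest lower intermediate cell (5.47). The red cell surface score includes the enzyme Car1.

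Integrins and adhesion receptors followed, with 6 of 12 measured members lower and 1 higher, list median -0.67. Itgb2, the beta partner of Itgal, was at 21.5 against 59.4 CPM, and Cd44, a hyaluronan receptor, was the higher member at 116 against 74.5 CPM. In the sphingosine-1-phosphate pathway 4 of 16 measured genes were higher and 6 lower, list median -0.06. The kinase Sphk1 and the lyase Sgpl1, which degrades the lipid, were higher, with Sgpl1 at 35.6 against 16.1 CPM. The receptors S1pr4 (48 against 156 CPM) and S1pr2 (7.95 against 23.8 CPM) and the exporter Spns2 (7.89 against 29.2 CPM) were lower.

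Epor, the erythropoietin receptor, lay between 89.4 and 409 CPM in lower intermediate cells (median 266) and between 16.2 and 365 CPM in BFUE cells (median 185), 1.47-fold higher in sum (interval 1.41 to 1.52). Of 14 measured genes of erythropoietin and Stat5 signalling 2 were higher and 5 lower, list median -0.32. Of all measured genes 9.54% were higher and 17.7% lower at the same 1.5-fold limit. The higher members were the adaptor Gab1, at 33.5 against 6.37 CPM, and the kinase Jak2, at 13.4 against 6.14 CPM. Among the lower ones was the phosphatase Ptpn6, which dampens erythropoietin receptor signals, at 112 against 245 CPM. Of 10 measured early cytokine receptors 3 were lower and 0 higher, list median -0.37, which was 0.22 in plate rows E to H alone. The lowest member of these receptors is also among the megakaryocyte markers above. In the list of glucocorticoid signalling and progenitor self-renewal 5 of 9 were lower and 1 higher, list median -0.88. Its lowest member is Gata2, which is described above. Nr3c1, the receptor itself, was at 39.2 against 72 CPM, and Zfp36l2, an RNA-binding protein required for self-renewal of these progenitors in the mouse, at 31.8 against 80.2 CPM. The list median was 0.26 in plate rows E to H alone. Of 7 measured TGF-beta receptors and Smads 1 was higher and 2 lower, list median 0.35, with Smad3 at 16.7 against 72.2 CPM. In rows A to D that median was -0.73. Of 5 measured immediate early genes 3 were lower and 0 higher, list median -1.25, but it was 0.036 in rows E to H.

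Genes of the red cell product itself were higher in part. Of 16 measured heme synthesis and transport genes 7 reached 1.5-fold higher levels and 0 were lower, list median 0.31. Fech, which inserts iron, was at 452 against 265 CPM, and Uros, which closes the ring, at 74 against 25.5 CPM. The heme score had medians of 7.27 in lower intermediate and 6.81 in BFUE cells, and 9 lower intermediate cells lay above all BFUE cells. Of 18 measured surface and blood group genes 6 were higher and 3 lower, list median 0.42. Rhd and Rhag, of the Rh complex, were at 278 against 99.9 CPM and 369 against 139 CPM. Slc29a1, a nucleoside transporter, was at 537 against 284 CPM. Car1, carbonic anhydrase 1, is an enzyme and no surface protein, but the list holds it among its lower members. It had a log2 ratio of -3.85, at 42.0 against 608 CPM. Among BFUE cells, that of well C3 held 42.9% of the reads of Car1, and without the highest cell of each group the log2 ratio was -3.63.

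Of 12 measured membrane skeleton genes 5 were higher and 1 lower, list median 0.34, which was -0.069 in plate rows A to D alone. Add2, an adducin that caps actin under the membrane, lay at a median of 263 CPM in lower intermediate and 76.1 CPM in BFUE cells, with a log2 ratio of 1.47. Ank1, which anchors the skeleton, was at 52.7 against 26 CPM. Tpm3, a tropomyosin, was the lower member at 259 against 445 CPM, and the lower intermediate cell was higher in 7.30% of pairs. Globin transcripts were scarce: of 8 listed globin and chaperone genes Hba-a1 alone was measured, at 21.8 against 7.63 CPM, and its near-identical copy Hba-a2 makes the split of reads uncertain. Of 9 measured late erythroblast markers 4 were higher and 0 lower, list median 0.39, a list that shares genes with those above. Among them Trim10, a ubiquitin ligase family member of red cells, had a higher ratio than Sphk1, at 14.5 against 0.191 CPM and a log2 ratio of 6.24, but held 10 or more reads in 6 of 21 lower intermediate and 0 of 15 BFUE cells. Of 16 measured iron genes 2 were higher and 2 lower, list median -0.06, beside 9.54% higher and 17.7% lower of all measured genes. The higher ones were Slc40a1 and Tfrc, which encodes a sorted protein and is no finding. Slc25a37, the mitochondrial iron importer mitoferrin, was lower, at 16.9 against 35.4 CPM.

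**Figure D4:**
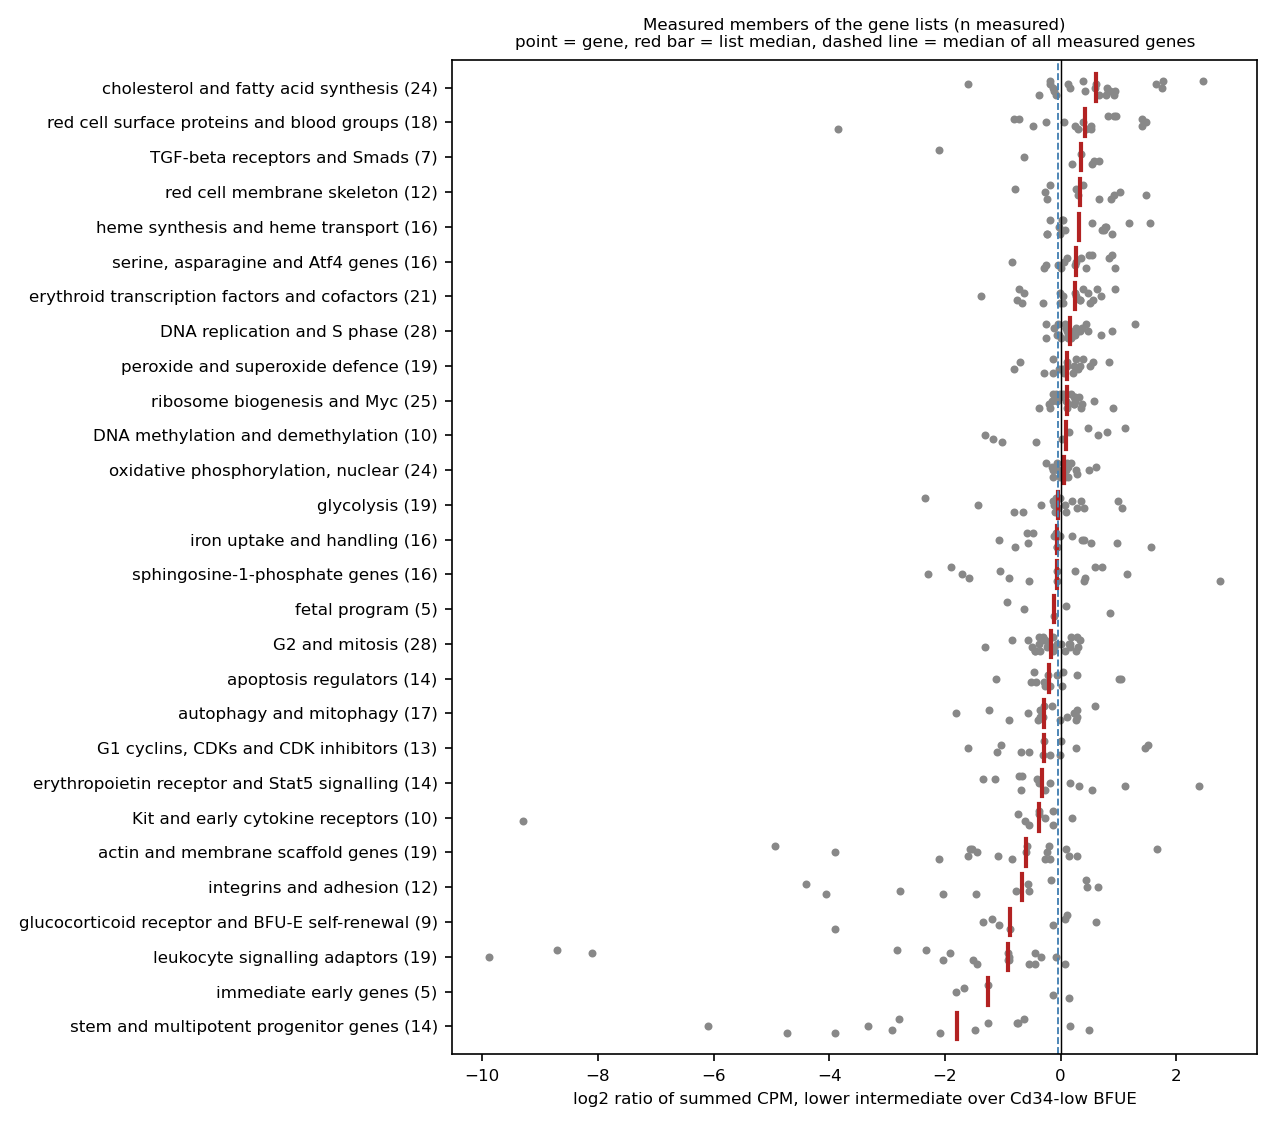
Log2 ratio of summed CPM, lower intermediate over Cd34-low BFUE, for each measured member of the pathway lists with 5 or more measured members, with the list median as a bar. Marker lists of other cell types are not drawn. The drawn medians run from -1.78 for stem genes to 0.61 for cholesterol and fatty acid synthesis, and most lists hold members on both sides of 0.

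Lipid synthesis had the highest list median with 5 or more measured members over all cells, but not in either set of plate rows. Its median was 0.38 in rows A to D, where that of surface proteins was 0.79. In rows E to H it was 0.37, where that of the membrane skeleton was 0.58. Of 24 measured cholesterol and fatty acid synthesis genes 13 were at least 1.5-fold higher, against 9.54% of all genes, and 1 lower, list median 0.61. Fads2, a fatty acid desaturase, lay at a median of 97.9 CPM in lower intermediate and 28.9 CPM in BFUE cells, with a log2 ratio of 1.66. Cyp51, a demethylase of the sterol path, had 10 or more reads in 16 of 21 against 3 of 15 cells, at 34.8 against 6.30 CPM. Fasn, fatty acid synthase, was at 169 against 87.9 CPM. Mvk, mevalonate kinase, was the lower member at 6.47 against 19.7 CPM. The score of the list had medians of 5.80 and 5.24 in lower intermediate and BFUE cells, and the lower intermediate cell was higher in 84.1% of pairs.

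Both E-type cyclins were higher in the lower intermediate cells. Ccne1 and Ccne2, the E-type cyclins, were at 380 against 138 CPM and 97.8 against 34.3 CPM, with log2 ratios of 1.46 and 1.51, and 21 of 21 against 12 of 15 cells held 10 or more reads of Ccne1. In all, 2 of 13 measured G1 genes were higher and 4 lower, list median -0.28, with Cdk6, a D-type cyclin partner, at 289 against 462 CPM. In the S phase list 3 of 28 were higher, a share near the 9.54% of all genes, and 0 lower, list median 0.16. These were Rrm2, a subunit of ribonucleotide reductase (703 against 290 CPM), Cdc6, which loads the replicative helicase (307 against 166 CPM), and Dtl (229 against 140 CPM). Of 28 G2 and mitosis genes 0 were higher and 2 lower, Nusap1 and Aurkb, list median -0.17. The score of the S phase list had medians of 8.21 and 7.75, and that of the G2 and mitosis list 6.82 and 6.92, in lower intermediate and BFUE cells.

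Ribosome and respiration genes differed little. Of 25 genes of ribosome biogenesis and Myc 1 was higher, Ddx21 (425 against 227 CPM), list median 0.11, and Myc was at 705 against 908 CPM. Of 24 nuclear genes of oxidative phosphorylation 1 was higher, Ndufs1, and 0 lower, list median 0.06. Of 19 measured glycolysis genes 2 were higher and 4 lower, list median -0.04, beside 9.54% higher and 17.7% lower of all measured genes. Pyruvate kinase was divided by gene: Pklr, the red cell and liver form, was at 270 against 130 CPM, and Pkm, the form of most tissues, at 392 against 618 CPM. Of 16 measured serine, asparagine and Atf4 genes 3 were higher and 1 lower, list median 0.26, with Asns at 742 against 414 CPM and the folate enzyme Mthfd2 at 151 against 81.7 CPM. Mthfd1, a cytosolic folate enzyme, had the highest share of pairs among the 8163 measured genes and was singled out after its values were seen. It lay between 763 and 1291 CPM in lower intermediate cells and between 336 and 795 CPM in BFUE cells, higher in 99.0% of pairs although the summed ratio was 1.63 (interval 1.60 to 1.66). Hspd1, the mitochondrial chaperonin, was higher in 95.2% of pairs, at 1949 against 1229 CPM.

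Along the series from BFUE through the lower and upper intermediate gates to CFUE, the genes differed in where their level stood. Sphk1 was at 37.5, 255, 296 and 271 CPM, and C1qtnf12 at 71.1, 232, 324 and 323 CPM, so that most of the increase lay at the first step. Rgcc was at 20.2, 117, 273 and 510 CPM, and Tgm2 at 14.2, 61.7, 123 and 182 CPM, with further increase at each step. Taf4b, a variant subunit of TFIID, was at 10.6, 52, 19.5 and 6.21 CPM, highest in the lower intermediate gate. Apoe was at 932, 137, 34.9 and 22 CPM, and Gata2 at 235, 15.6, 1.48 and 0.395 CPM. Car1 was at 608, 42.0, 42.3 and 72 CPM, without a further decrease. The BFUE values are those of the 15 Cd34-low cells.

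**Figure D5:**
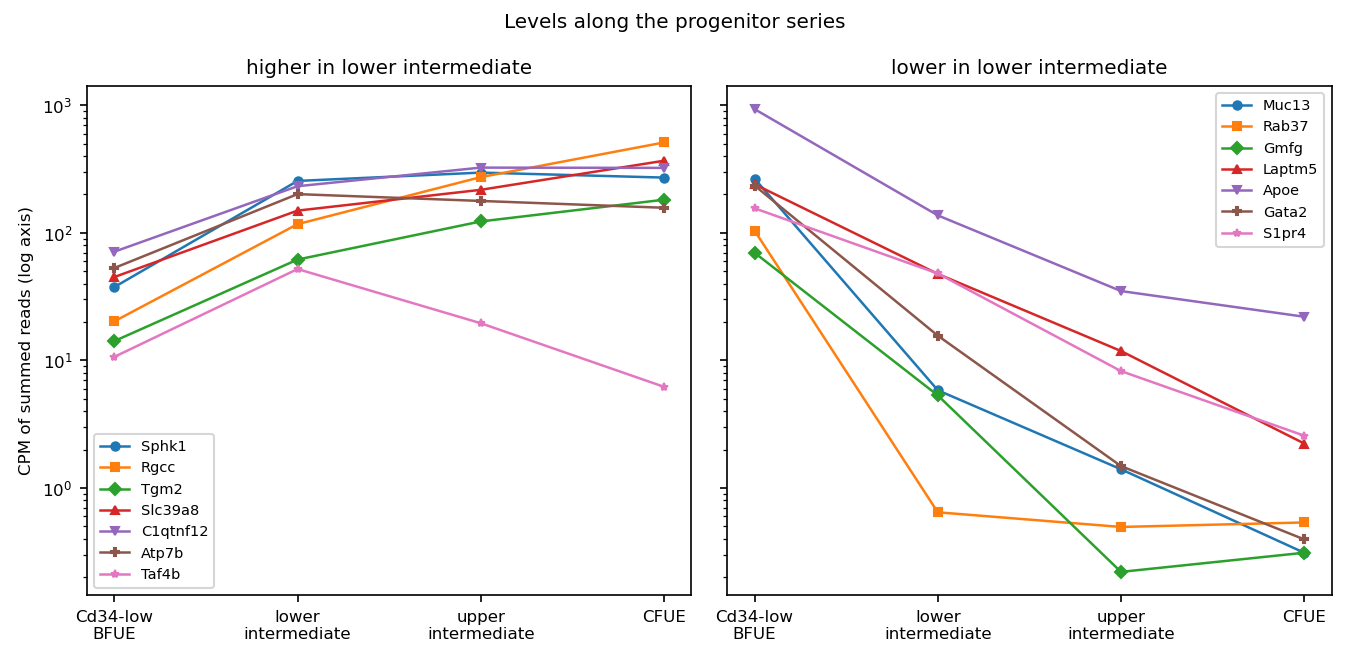
CPM of summed reads on a log axis in 15 Cd34-low BFUE, 21 lower intermediate, 24 upper intermediate and 23 CFUE cells, for 7 genes higher (left) and 7 genes lower (right) in the lower intermediate cells. The 7 higher genes drawn, except Taf4b, stay above their BFUE level in the later gates, and the 7 lower genes drawn stay under their lower intermediate level.

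The letters GATAA were about as frequent in promoters of both directions as in those of all measured genes. RefSeq windows (GRCm38.p6, 250 bases before to 50 after a start) matched 230 of the 304 higher genes, 564 of the 735 lower genes and 6407 of the 8163 measured genes by symbol. GATAA on either strand was in 17.8% of 298 windows of higher genes (exact interval 13.6 to 22.6%), 17.8% of 763 windows of lower genes (interval 15.2 to 20.7%), 16.3% of windows of all measured genes and 25.4% of all RefSeq windows. CACCC, the letters read by Klf1 and related factors, on either strand was in 63.1% of windows of higher genes (interval 57.3 to 68.6%), 66.4% of lower genes (interval 63 to 69.8%), 61.4% of all measured genes and 57.5% of all RefSeq windows. CANNTG, read by helix-loop-helix factors, was in 62.1% (interval 56.3 to 67.6%), 68.2% (interval 64.7 to 71.4%), 62.2% and 72.3% of the same windows. Windows of a gene can overlap, so the intervals are too narrow, and a match is no binding site.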

How the data were processed

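Single cells were sorted into wells and libraries made by Smart-seq2 from polyA RNA, per the labels' protocols. Per the submitters' processing notes, the authors used STAR 2.4 and GRCm38 for alignment and featureCounts for counting. The deposited values are whole-number read counts per gene, without normalisation. Not given in the sources used here are the featureCounts version, annotation release, strand setting and handling of shared reads. Header names were matched to columns in order, since the header line has an extra empty cell. Full-length reads favour long genes, so levels are compared within a gene.

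The table held 49466 genes. Coordinates are from GENCODE M21, which held 99.72% of the identifiers. Wells under 50000 reads were left out (5 wells, 10596 to 16644 reads), and 0 columns lacked a sample. For 76 symbols with several identifiers the one with most reads was used. Doublets were not called. The protocol sorted 1 cell per well, and whether each well held 1 cell was not tested.

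Counts were summed over cells and scaled to CPM. Ratios have exact conditional binomial (Clopper-Pearson) 95% intervals, and a sum of 0 was set to a floor of 3 counts per group. Cells were thinned to 500000 reads for the scores. Ratio and interval were tested on simulated data for this comparison with 7732 genes, of which 94% of the 50 changed 2-fold lay within their interval. Simulated counts were Poisson sums, so this checks the script and not the spread of cells.

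Ranked genes needed 50 CPM in the higher group, 10 reads in 50% of its cells, no cell with over 25% of its reads, a 2-fold difference both in summed CPM and in the mean over cells, and one direction in both sets of plate rows (A to D, E to H). The 15 largest and smallest ratios were named, predicted genes and pseudogenes aside. Up to 6 members per list were also named, with members that went against their list, and were not held to those limits. Some members are not reported here. The members, the 29 gene lists and the 9 marker lists were chosen with earlier results of these data known. Alternatives used other scalings, filters and cells, with edgeR 4.0.16 (TMM) and DESeq2 1.42.0 (size factors) in R 4.3.3 for scaling only. Other software was matplotlib 3.10.9, scipy 1.17.1, pandas 2.3.3, numpy 2.4.6 and Python 3.11.15.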

Additional observations from a re-analysis of the deposited data

How the results depend on the processing

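No paired analysis was possible because the result comes from no test and the well numbers only name cells. Each gate is a single sample, with plate columns that cannot be told apart from it. A read count of this depth limits levels under about 10 reads per cell, and the spread of cells is wider than the counting intervals.

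With 304 genes at least 2-fold higher and 735 lower, other settings gave these values where a count moved by over 1.5 times. The number of measured genes differed by setting. Higher genes were 584 of 7105 by the median of per-cell CPM, 1232 of 13822 with no filter and 68 of 4523 at 50 CPM or more. They were 512 of 8165 in wells with 1500000 or more reads, 585 of 8280 in plate rows A to D alone and 554 of 8165 in rows E to H alone. Lower genes were 2106 of 13822 with no filter and 149 of 4523 at 50 CPM or more. They were 1341 of 8605 with all kept BFUE cells and 1140 of 8280 in rows A to D. Without the BFUE cells of wells D1 and G2, 327 were higher and 666 lower. The share of higher genes among both was 29.3%, and 47.7% by the median of per-cell CPM. The median log2 ratio of all genes, -0.046, was 0.00057 by the median of per-cell CPM, 0.025 with TMM scaling, 0.045 with DESeq2 size factors, 0.0071 at 50 CPM or more and 0.0092 without the highest cell of each group. Allowing 1 overlapping cell, 1 gene was higher and 4 lower.

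List medians (log2) that moved by more than the spread of cells are given by setting. By the median of per-cell CPM they were 1.66 for the membrane skeleton, -0.25 for glucocorticoid receptor and self-renewal, -1.67 for TGF-beta, -0.98 for stem genes, 0.34 for sphingosine-1-phosphate, -0.24 for integrins, -0.44 for immediate early genes and 0.093 for apoptosis. With no filter they were -0.32 for self-renewal, -1.37 for integrins, -0.59 for immediate early genes and -0.64 for the fetal program. At 50 CPM or more they were -0.51 for self-renewal, -0.64 for TGF-beta, -1.26 for stem genes and 0.41 for sphingosine-1-phosphate. In wells with 1500000 or more reads they were 0.75 for the membrane skeleton and -0.41 for sphingosine-1-phosphate.

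With all kept BFUE cells, which brings back the Cd34-high cells, they were 0.69 for heme, -1.81 for cytokine receptors, -0.43 for self-renewal, -0.40 for TGF-beta, -3.64 for stem genes, -1.55 for integrins, -1.06 for the actin scaffold, -2.05 for leukocyte adaptors, -2.17 for immediate early genes, 0.35 for ribosome biogenesis, 0.30 for peroxide defence and -1.26 for the fetal program. In rows A to D they were -0.069 for the membrane skeleton, 0.79 for surface proteins, -1.0 for cytokine receptors, -0.73 for TGF-beta, 0.28 for sphingosine-1-phosphate, 0.16 for apoptosis and 0.083 for autophagy. In rows E to H they were -0.74 for erythropoietin and Stat5, -1.0 for stem genes and -0.60 for sphingosine-1-phosphate, and the sign turned for cytokine receptors (0.22), self-renewal (0.26) and immediate early genes (0.036). Without the highest cell of each group they were -0.43 for self-renewal, -1.16 for stem genes and -0.69 for immediate early genes, and without D1 and G2 -0.30 for immediate early genes. Without A2, D1 and G2 they were -1.19 for stem genes and -0.042 for immediate early genes, with 343 genes higher and 614 lower. Signs also turned for TGF-beta by the median of per-cell CPM, at 50 CPM or more, with all kept BFUE cells and in rows A to D, and for sphingosine-1-phosphate by the median of per-cell CPM, at 50 CPM or more and in rows A to D. They turned for apoptosis by the median of per-cell CPM, and for apoptosis, autophagy and the membrane skeleton in rows A to D. The cause of these moves was not tested beyond the cells or genes each setting leaves out.

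Of 3441 values of named genes under other settings, 26 turned the sign of a gene whose main ratio was at least 1.5-fold. Sign turns of genes with smaller main ratios were not counted. By the median of per-cell CPM these were Alb (0.26), E2f2 (0.22) and Hemgn (-0.26). In deep wells they were Ahsg (0.12) and Bcl2l11 (-0.30). With all kept BFUE cells they were Atg4a (-0.25), Hk2 (-0.25), Mpp1 (-0.31), Tet2 (-0.65) and Tgfbr2 (-0.75). In rows A to D they were Mpp1 (-0.089) and Pink1 (0.27). In rows E to H they were Ahsg (0.31), Alb (0.065), Arid3a (0.16), Atg4a (-1.06), Dusp2 (0.93), E2f2 (4.08), Igf2bp3 (0.032), Il2rg (0.11), Per1 (0.44), Prtn3 (0.13), Rb1 (0.51), Tsc22d3 (0.44), Ulk2 (6.56) and Vwf (2.78). Sphk1 was higher and Gata2 lower under each setting run. Of 16 other settings, 0 turned the sign of Tgm2, Muc13 or Rab37. They and Sphk1 are ranked genes. Ranking required the same direction in both sets of plate rows and a 2-fold difference in the mean over cells. Those settings could therefore not turn their sign.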

Other observations

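Other gene lists had medians between -0.28 and 0.44 in lower intermediate over Cd34-low BFUE cells, and are given as values. Of 19 measured genes of peroxide and superoxide defence 1 reached a 1.5-fold higher level and 2 were lower, with a list median (log2) of 0.12. Prdx2, an abundant peroxiredoxin of red cells, was at 1251 against 877 CPM, and Txnrd2, the mitochondrial thioredoxin reductase, at 186 against 104 CPM. Of 14 measured apoptosis regulators 2 were higher and 1 lower, list median -0.20. Of 17 measured autophagy genes 1 was higher and 3 lower, list median -0.28. Optn, a receptor of selective autophagy, was at 75.8 against 178 CPM.

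Of 10 measured DNA methylation and demethylation genes 3 were higher and 3 lower, list median 0.09. The lower ones held both de novo methyltransferases, Dnmt3a at 25.8 against 58 CPM and Dnmt3b at 62.8 against 155 CPM, and the demethylase gene Tet3. Dnmt3b had a median of 55.6 CPM in lower intermediate and 139 CPM in BFUE cells. Of 5 measured genes of the fetal program 1 was higher and 2 lower, list median -0.11. Lin28b, which holds fetal traits in blood cells, was at 70.8 against 76.4 CPM, and Igf2bp1, an RNA-binding protein of fetal cells, at 99.8 against 55.4 CPM. Of 8 genes of the early erythroid marker list, which holds the sorted genes and those that led the comparison, 3 were higher and 1 lower, list median 0.44.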
